A study of Mus musculus with 10 samples.

Results

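Complex I, the NADH:ubiquinone oxidoreductase of the mitochondrial inner membrane, was followed through its nuclear genes in heart ventricles of sham-operated and naive mice. The genes are the protein-coding rows of the count table whose symbol starts with Nduf, with repeated rows of an Ensembl gene collapsed, 46 of the 40690 genes in the table. Of these, 38 carry subunit symbols (Ndufa, Ndufb, Ndufc, Ndufs and Ndufv) and 8 carry the assembly factor symbol Ndufaf. The subunit symbols include Ndufa4, which is now placed in complex IV, and its paralog Ndufa4l2, which leaves 36 nuclear subunits of complex I. All 46 genes had enough counts to be tested.

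Ventricular poly(A) RNA was sequenced in 5 libraries of sham-operated mice, which had a sham operation for ischemia-reperfusion, and in 5 libraries of naive mice that had no operation. All mice were wild-type C57BL/6 males of 10 weeks, and the comparison asks what the control surgery itself does to the heart's transcripts. The sources used here do not give the time between operation and harvest. The labels list each library as a sample of its own without naming animals or days. Whether each library came from a mouse of its own is not known here, and the spread that the p-values rest on may therefore be technical.

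Complex I takes electrons from NADH and passes them to ubiquinone while pumping protons across the membrane, and the beating heart depends on it for most of its oxidative ATP supply. Its peripheral arm holds the N module, where NADH is oxidised, and the Q module, where ubiquinone is reduced. The membrane arm holds the proton pumps, encoded by mitochondrial DNA, and many accessory subunits encoded in the nucleus. Core subunits carry the flavin and the iron-sulfur clusters, accessory subunits stabilise the complex, and assembly factors help to build it without staying in the finished enzyme.

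Sham libraries held 10654107 to 21537135 counted reads and naive libraries 9683181 to 17577906. In CPM (counts scaled to library size with TMM factors), 3 counts in a library corresponded to 0.122 to 0.260 CPM in sham and 0.185 to 0.357 CPM in naive libraries, a limit that covers counting error only. Sham 4 stood apart among the sham libraries, with 24214 genes detected against 20842 to 22570 in the other sham libraries and 20235 to 20973 in the naive ones. It also gave the highest sham value for 35 of the 36 complex I subunits and lay above the naive mean for 24 of them, so calls that turn on it are given with and without it. No library repeated another: the smallest chi-square per degree of freedom between libraries of the same group was 9.93, where counting noise alone gives about 1. Atrial and skeletal muscle markers summed to at most 7.36 CPM and 4.36 CPM in any library, and the cardiomyocyte markers to between 61000.1 and 85883 CPM. The atrial maximum was that of sham 4, against 2.15 to 2.99 CPM in the other sham libraries.

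The subunit genes were transcribed at high levels in both groups. Per kilobase of transcript (RPKM, with the length of the shortest principal transcript of each gene), the 36 complex I subunits had a median level of 244 RPKM over the 10 libraries, against 5.70 RPKM for all 12797 protein-coding genes tested. Ndufs7, a Q module core subunit that carries an iron-sulfur cluster, had the highest level at 831 RPKM in sham and 968 RPKM in naive ventricles. Next came the membrane arm subunits Ndufb10, at 729 RPKM in sham and 885 RPKM in naive, and Ndufb8, at 698 RPKM in sham and 901 RPKM in naive. The 8 assembly factors had a median level of 8.02 RPKM and ran from 5.23 RPKM for Ndufaf7 to 45.2 RPKM for Ndufaf8.

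Several low subunit levels concern genes that share sequence with other genes. The 6 subunits in which over 30% of 50-base windows also occur in another gene's transcripts (Ndufb2, Ndufb4, Ndufb6, Ndufab1, Ndufs3 and Ndufs5) had a median level of 24.9 RPKM, against 335 RPKM for the other 30. Ndufb4, listed at 1.84 RPKM in sham and 1.97 RPKM in naive ventricles, shares 37.0% of its windows with any of 3 genes, more with Ndufb4c than with the others. Ndufs5 shares 41.2% with BC002163 and Ndufs3 39.7% with any of 3 genes, more with Gm12251 than with the others. The levels of these genes are uncertain, since reads that match several genes may be split or lost in counting.

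**Figure D1:**
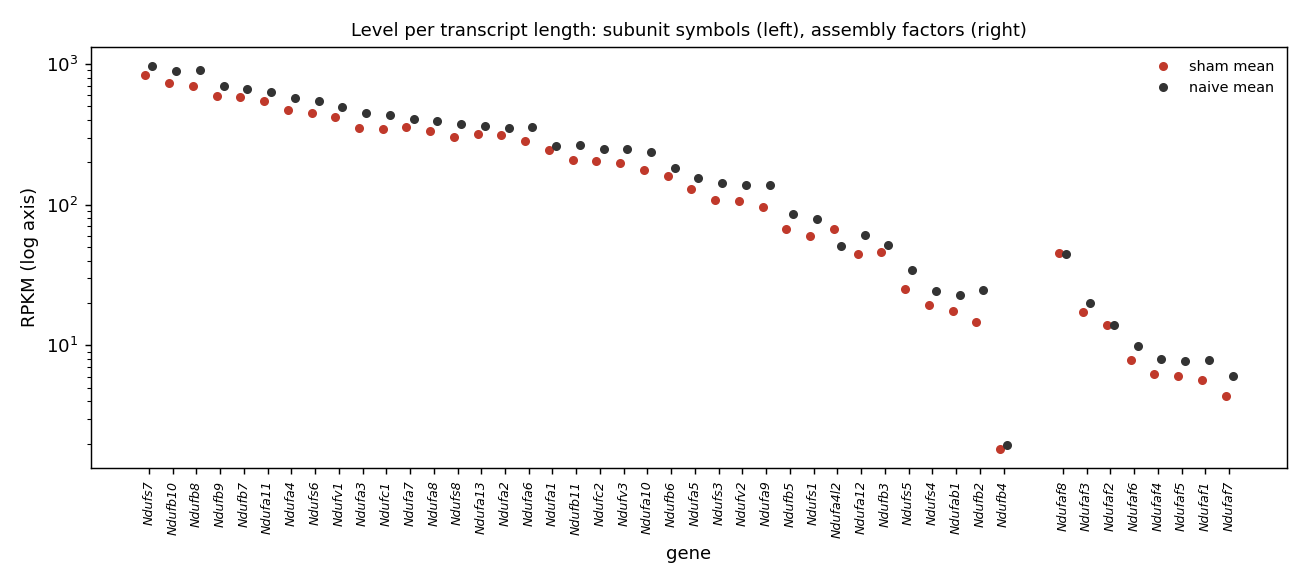
Mean level per kilobase of transcript (RPKM, log axis) of 45 of the 46 Nduf genes in sham (red) and naive (dark) ventricles, subunit symbols on the left and assembly factors on the right, ordered by level. Subunits run from 1.84 RPKM (Ndufb4, sham) to 968 RPKM (Ndufs7, naive), and the sham point lies below the naive point for every complex I subunit drawn (under TMM scaling; for 23 of all 36 fitted values with library size alone).

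Complex I subunit transcripts were lower on average in sham than in naive ventricles, by modest amounts. Of the 36 subunits, 12 were lower in sham and 0 were higher (quasi-likelihood F test of edgeR over 13622 genes, adjusted p under 0.05 after Benjamini and Hochberg), and 24 did not pass. At an unadjusted p under 0.05, 23 were lower and 0 higher, and DESeq2 and limma voom called none of the 36 higher. Across all tested genes 15.5% were called lower and 17.2% higher. The log2 fold change of sham over naive was negative for all 36 subunits under TMM scaling and for 23 of 36 with library size alone, a scaling that raises the median of all genes by 0.26. Ndufb4 had a positive value without sham 1, sham 5 or naive 4. With all libraries, all 36 lay below the median of all genes under both scalings. The change of scaling moves all genes by nearly the same amount, so the order under the second scaling follows from the first and is no separate support. The median over the 36 subunits was -0.31, a level 19.3% lower, and the quartiles were -0.37 and -0.22, while the median of all tested genes was -0.05. Fitted differences ran from -0.09 for Ndufa1 to -0.74 for Ndufb2, and neither of these passed the test.

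The libraries of the groups seldom separated fully. In 3 of the 36 subunits (Ndufa10, Ndufb11 and Ndufb8) all 5 sham libraries lay below all 5 naive libraries, close to the 9.18% of all tested genes with that order. Without counting sham 4, the other 4 sham libraries lay below all 5 naive libraries in 22 of the 36 subunits, where 11.7% of all tested genes did. Refitted without sham 4, 28 of the 38 subunit symbols were lower, among them the same 12, against 13.1% lower and 17.9% higher among all genes tested in that fit. Sham 4 was set aside in part for its high values in these same subunits, so leaving it out favours separation and lower calls in them. The shares of all genes cover genes not picked in that way and are no fair measure of this. The median log2 fold change of the subunit symbols was then -0.39, against -0.30 with all libraries. In bulk tissue, fewer heart muscle cells and less of a transcript per cell cannot be told apart.

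**Figure D2:**
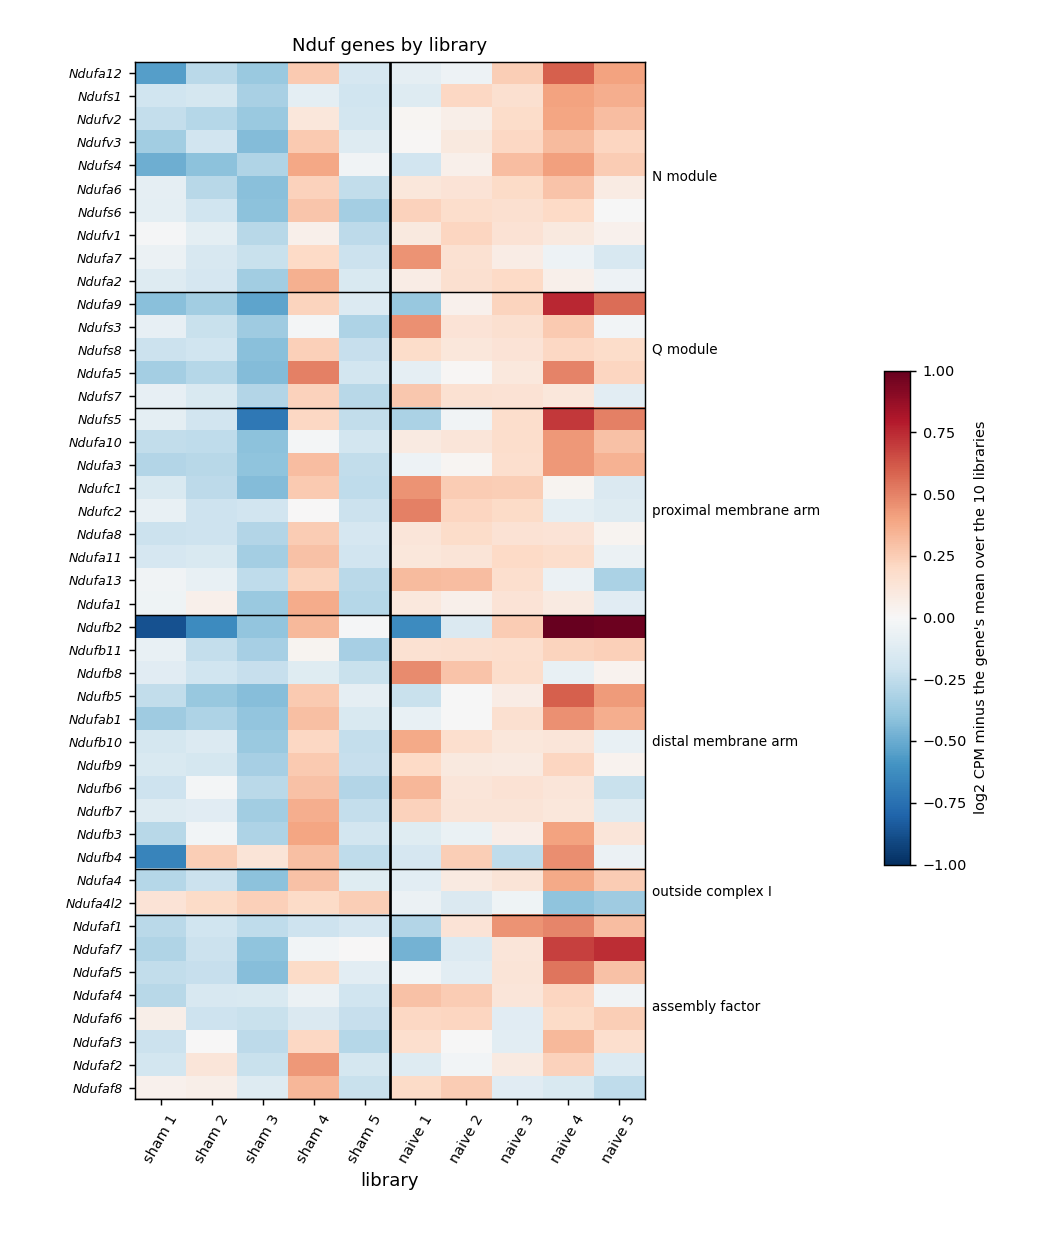
Level of 45 of the 46 Nduf genes in each library as log2 CPM (with 0.5 added) minus that gene's mean over the 10 libraries, with sham libraries left of naive ones and colours capped at -1 and 1. Sham 1, 2, 3 and 5 are mostly blue, sham 4 and the naive libraries mostly red, and Ndufa4l2 runs the other way.

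Markers of other cells moved with the groups. All 6 macrophage markers rose in sham, with a summed level of 817 to 958 CPM in sham and 272 to 331 CPM in naive libraries. Of 7 fibroblast markers, 6 rose, with sums of 11241 to 20963 CPM in sham and 1105 to 1616 CPM in naive libraries, and sham 4 had the lowest sham sum. Of 10 cardiomyocyte markers, 9 fell and Tnnt2 did not pass. Their median log2 fold change was -0.39, and they summed to between 61000.1 and 70707 CPM in sham and 82512 to 85883 CPM in naive libraries, with sham 4 the highest sham library. Not every marker followed that sum, as sham 4 had the lowest sham value for Ryr2, at 907 CPM, and for Myh6, at 28788 CPM. Of 5 endothelial markers, 3 fell (Cdh5, Kdr and Tek; median log2 fold change -0.22), with sums of 836 to 975 CPM in sham and 983 to 1182 CPM in naive libraries. Of 5 mural cell markers, Tagln rose, at 1.24, and the others did not pass, with sums of 508 to 711 CPM in sham and 437 to 642 CPM in naive libraries. None of these markers was at 0 in either group. With library size alone 1 cardiomyocyte marker was lower (median -0.13), no endothelial marker passed (median 0.05), and macrophage and fibroblast counts were 6 higher each. Without sham 4, 1 endothelial marker was lower and 2 mural markers were higher. Set against the cardiomyocyte markers, the mean log2 CPM of the 36 subunits differed by -4.78 ± 0.14 in sham and -4.88 ± 0.07 in naive libraries (SD, n = 5 each), the sham mean being 0.094 higher. Sham 4, at -4.53, was the highest of the 10 libraries, and without it the sham mean was 0.031 higher. The part of cell composition in the subunit differences was not tested.

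**Figure D3:**
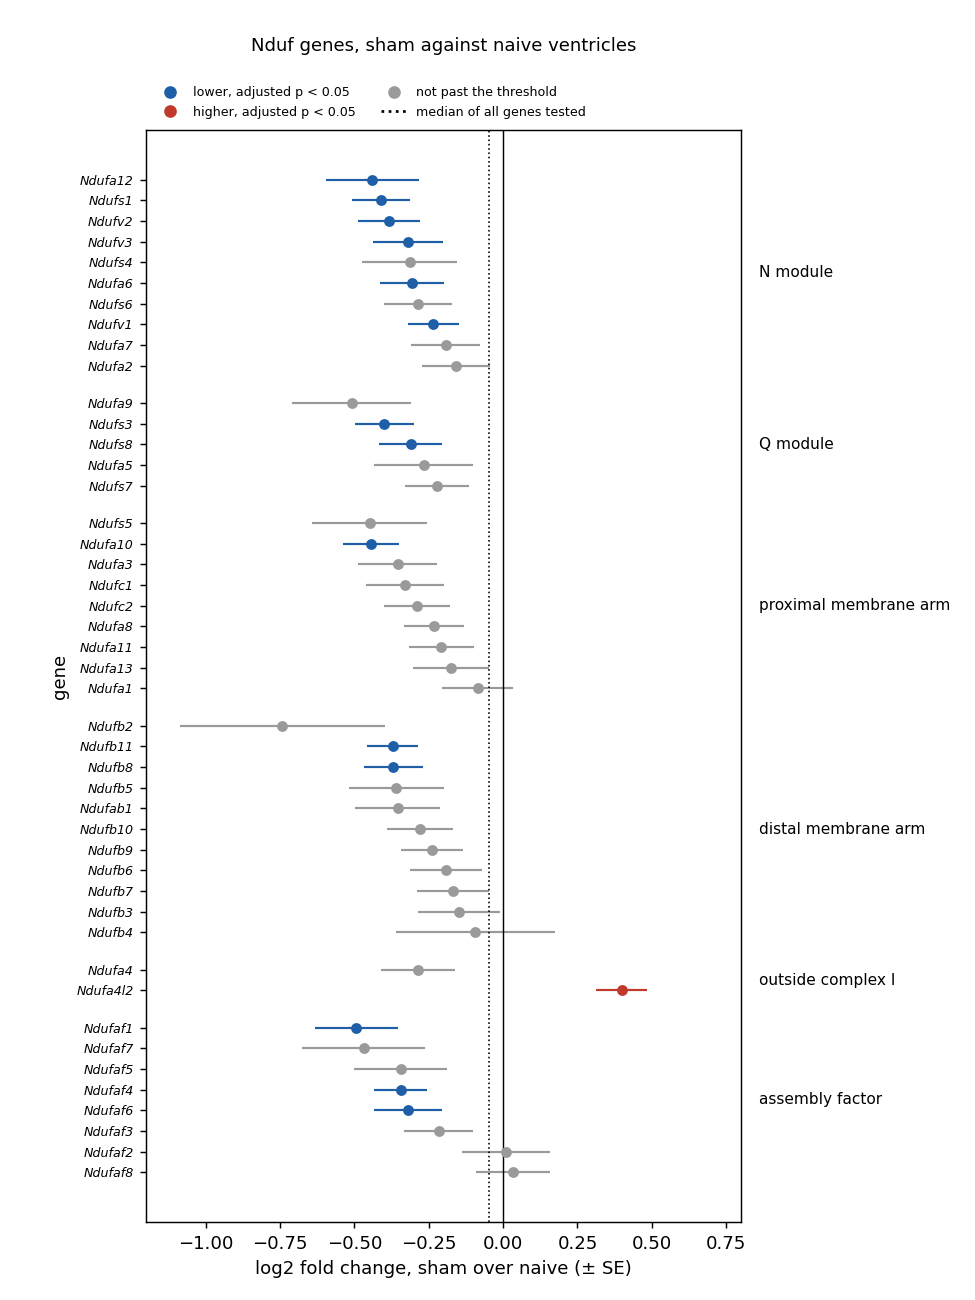
Log2 fold change of sham over naive (± SE) for 45 of the 46 Nduf genes by module, with lower calls in blue, the higher call in red and genes not past an adjusted p of 0.05 in grey; the dotted line is the median of all genes tested. All complex I subunits drawn lie left of the dotted line, 11 of them as lower calls, and Ndufa4l2, on the right, is the 1 higher call. The values drawn are with TMM scaling, and with library size alone 0 subunits were called lower.

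Among the 7 nuclear core subunits, which carry the electron path, Ndufs1, Ndufs3, Ndufs8, Ndufv1 and Ndufv2 were lower in sham and Ndufs7 did not pass. The median log2 fold change of the 7 was -0.38, against -0.29 for the 29 accessory subunits; the difference between core and accessory subunits was not tested. Ndufs3, a core subunit of the Q module in which assembly starts (chromosome 2, 90894634 to 90904827, minus strand of GRCm38), had 122, 110.3, 101, 127 and 104 CPM in sham 1 to 5, against 178, 142, 144, 154 and 127 CPM in naive 1 to 5. Sham 4 was the only sham library inside the naive range, just above naive 5. Its log2 fold change was -0.40 ± 0.10 (SE) (adjusted p = 0.00582), with the sequence sharing named above.

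Ndufs8, which carries iron-sulfur clusters near the ubiquinone site, had 226, 229, 196, 309.7 and 224 CPM in sham 1 to 5, against 298, 283, 288, 303 and 298 CPM in naive 1 to 5. Sham 4 lay above every naive library and the other sham libraries below all of them, with the log2 fold change at -0.31 ± 0.11 (SE) (adjusted p = 0.0327). Without sham 4 this was -0.40 (adjusted p = 6.05e-04), and the call was lost (adjusted p 0.051 to 0.092) when sham 1, 2, 3 or 5 or naive 3, 4 or 5 was left out. Ndufs7 had 639, 608, 549.9, 794 and 557 CPM in sham 1 to 5, against 815, 750.4, 747, 729 and 628 CPM in naive 1 to 5. Sham 1 and sham 4 lay inside the naive range, and the log2 fold change of -0.22 ± 0.11 (SE) did not pass (adjusted p = 0.131). Without sham 4 Ndufs7 was called lower at -0.29 (adjusted p = 0.015).

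In the N module, Ndufs1, the largest subunit and carrier of iron-sulfur clusters (chromosome 1, 63143596 to 63176833, minus strand), had 155, 157, 141, 166 and 155 CPM in sham 1 to 5, against 162, 204, 198, 235 and 228 CPM in naive 1 to 5. Sham 4 was above naive 1, and every other pairing of a sham with a naive library had the sham value lower. Its log2 fold change was -0.41 ± 0.10 (SE) (adjusted p = 0.00450). Ndufv1, which binds the flavin and oxidises NADH, had 753, 708, 626, 783 and 632 CPM in sham 1 to 5, against 811, 878, 839, 812 and 779 CPM in naive 1 to 5. Sham 4 alone overlapped the naive libraries, and the log2 fold change was -0.23 ± 0.09 (SE) (adjusted p = 0.0473). With library size alone the sign of Ndufv1 turned to 0.03 (adjusted p = 0.823). Its call was also lost without sham 2, 3 or 5 or naive 2, 3 or 4, at adjusted p 0.064 to 0.153. Ndufv2, which carries an iron-sulfur cluster beside it, had 173, 167, 157, 220.4 and 179.8 CPM in sham 1 to 5, against 206, 212, 232, 267 and 252 CPM in naive 1 to 5. Sham 4 lay above naive 1 and naive 2, and the log2 fold change was -0.38 ± 0.10 (SE) (adjusted p = 0.00984).

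The N module as a whole had 6 of 10 subunits lower in sham, with a median log2 fold change of -0.31. The Q module had 3 of 6 with a median of -0.36, and of all genes 15.5% were lower. The accessory N module members Ndufa12, at -0.44, Ndufv3, at -0.32, and Ndufa6, at -0.31, were among the lower calls. Each of these 3 calls was lost when sham 2, sham 3, sham 5, naive 3 or naive 4 was left out, Ndufa12 and Ndufv3 also without sham 1 or naive 5, and Ndufa6 and Ndufv3 also without naive 2 (adjusted p 0.060 to 0.125). Ndufs4, whose loss in mice gives a Leigh-like brain disease, had a log2 fold change of -0.31 and did not pass (adjusted p = 0.150), but was called lower without sham 4, at -0.45 (adjusted p = 0.018). Ndufa9, a Q module accessory subunit at the joint of the arms, had a larger fitted difference of -0.51, with the wide SE of 0.20 (adjusted p = 0.0680). It was called lower without sham 4 at -0.62 (adjusted p = 0.039) or without naive 1 at -0.64 (adjusted p = 0.0092). Without sham 4, 9 of 10 N module and 6 of 6 Q module subunits were lower, against 13.1% of all genes. That share is no fair measure here, since sham 4 was set aside in part for its high values in these subunits.

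The membrane arm had fewer calls at a similar median. In its proximal part 1 of 9 nuclear subunits was lower (median log2 fold change -0.29) and in its distal part 2 of 11 (median -0.28), so that 3 of 20 membrane arm subunits were lower, near the 15.5% of all genes. The peripheral arm had 9 of 16 lower (median -0.31), and the difference between the arms was not tested. Without sham 4 the membrane arm counts were 5 of 9 and 7 of 11, against 13.1% of all genes. Here too sham 4 was set aside in part for its high values in these subunits, so that share is no fair measure. Ndufa10, an accessory subunit of the proximal part related to nucleoside kinases (chromosome 1, 92439010 to 92473860, minus strand), had 347, 344, 309.9, 406 and 361 CPM in sham 1 to 5, against 437, 448, 463, 556 and 502 CPM in naive 1 to 5. Every sham library lay below every naive one. The log2 fold change was -0.44 ± 0.09 (SE) (adjusted p = 0.00183), the smallest p among the lower calls.

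Ndufb11, a distal subunit that the X chromosome encodes (chromosome X, 20615326 to 20617619, minus strand), had 202, 179.8, 169, 217 and 168 CPM in sham 1 to 5, against 236, 237, 238, 248 and 251 CPM in naive 1 to 5. The groups did not overlap, and the log2 fold change was -0.37 ± 0.09 (SE) (adjusted p = 0.00366). Ndufb8, a distal subunit often used as a protein marker of assembled complex I, is given here because its groups did not overlap, a choice made after its values were seen. It had 495, 467, 457, 493 and 459.5 CPM in sham 1 to 5, against 745, 653, 606, 509.7 and 550.2 CPM in naive 1 to 5. Its log2 fold change was -0.37 ± 0.10 (SE) (adjusted p = 0.00915), and it was the 1 subunit for which sham 4 did not give the highest sham value. Of its principal transcript 19.7% overlaps the annotated gene Gm20538 on the same strand, and of that of Ndufb11 12.9% overlaps Rbm10 on the other strand, so both counts may hold or lack reads of a neighbour. The lower calls for Ndufa10, Ndufb11, Ndufb8, Ndufs1, Ndufs3 and Ndufv2 held in all 24 alternatives other than library size alone.

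The 3 subunits with the largest p-values were Ndufb4, Ndufa1 and Ndufb3, all small membrane arm proteins. Ndufa1, a small membrane protein without which the complex does not assemble in hamster cells, had 102, 109, 81.05, 135 and 86.1 CPM in sham 1 to 5, against 113, 108, 115, 111 and 97.04 CPM in naive 1 to 5. The ranges overlapped widely and the log2 fold change was -0.09 ± 0.12 (SE) (adjusted p = 0.624). Ndufb3 had 30.3, 36.2, 29.7, 48.5 and 32.3 CPM in sham 1 to 5, against 33.8, 35.2, 38.5, 48.8 and 40.03 CPM in naive 1 to 5. The ranges overlapped, with the log2 fold change at -0.15 ± 0.14 (SE) (adjusted p = 0.444). Ndufb4 was near the limit of counting, with 11 to 52 counts per library, and had 0.953, 2.22, 2.01, 2.32 and 1.43 CPM in sham 1 to 5, against 1.55, 2.21, 1.42, 2.67 and 1.705 CPM in naive 1 to 5. Its log2 fold change of -0.09 ± 0.27 (SE) has a wide error (adjusted p = 0.822), and for none of these genes does the p show that the groups were alike. Ndufab1, the mitochondrial acyl carrier protein, which serves fatty acid and lipoic acid synthesis besides sitting in complex I, had 21.8, 22.6, 21.2, 34.6 and 25.1 CPM in sham 1 to 5, against 26.5, 27.9, 31.3, 38.6 and 36.2 CPM in naive 1 to 5. Sham 4 lay among the naive libraries and the other sham libraries below all of them, with the log2 fold change at -0.35 ± 0.14 (SE) that did not pass (adjusted p = 0.0686). Ndufab1 was called lower without sham 4, at -0.47 (adjusted p = 0.0082), and without naive 1, at -0.41 (adjusted p = 0.036).

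Ndufa4l2 was the 1 Nduf gene that rose. It encodes a paralog of Ndufa4 that hypoxia-inducible factor turns on in low oxygen and that lowers complex I activity in such cells. Ndufa4l2 (chromosome 10, 127514967 to 127517154, plus strand) had 59.9, 62.2, 64.1, 62.1 and 64.4 CPM in sham 1 to 5, against 52.1, 49.2, 52.7, 41.1 and 42.4 CPM in naive 1 to 5. Every sham library lay above every naive one, an order found in 13.6% of all tested genes. Its log2 fold change was 0.40 ± 0.09 (SE) (adjusted p = 0.00221), and it remained a higher call in all 25 alternatives. Ndufa4, the complex IV subunit (chromosome 6, 11900292 to 11907497, minus strand), had 190.1, 199.7, 175, 285 and 214 CPM in sham 1 to 5, against 216, 248, 254, 302 and 277 CPM in naive 1 to 5. Sham 4 lay among the highest naive libraries, sham 5 just below naive 1, and the log2 fold change of -0.29 ± 0.13 (SE) did not pass (adjusted p = 0.0947). Ndufa4 was called lower without sham 4, at -0.38 (adjusted p = 0.0096), and without naive 1, at -0.35 (adjusted p = 0.041). Per transcript length, Ndufa4 was the more abundant of the paralogs, at 470.5 RPKM in sham and 574 RPKM in naive ventricles, against 67.0 RPKM in sham and 50.9 RPKM in naive for Ndufa4l2.

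**Figure D4:**
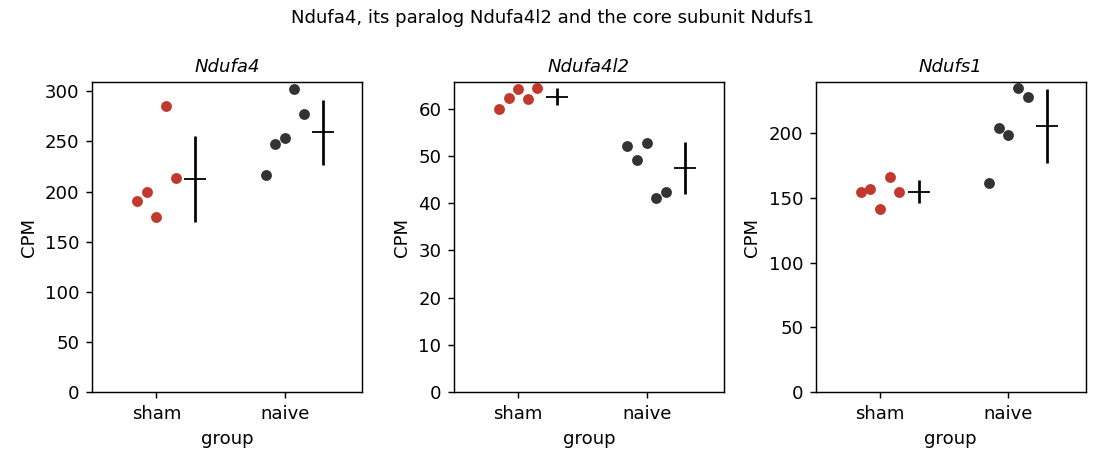
CPM in each library of Ndufa4, Ndufa4l2 and the core subunit Ndufs1, sham (red) left of naive (dark), with the mean ± SD (n = 5) beside the points. The 5 sham values of Ndufa4l2, 59.9 to 64.4 CPM, lie above all naive values, while those of Ndufa4 and Ndufs1 overlap the naive range at sham 4.

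Assembly factors were lower in part. Of the 8 Ndufaf genes, 3 were lower in sham (Ndufaf1, Ndufaf4 and Ndufaf6) and 0 were higher, against 15.5% and 17.2% of all genes, and the median log2 fold change was -0.33. At an unadjusted p under 0.05, 5 were lower and 0 higher, and DESeq2 and limma voom also called 0 higher. Without sham 4, 2 were lower, Ndufaf6 having lost its call, and the median was -0.32. With library size alone 0 were called lower and the median was -0.07, while relative to the median of all genes it was -0.29 under both scalings. The change of scaling moves all genes by nearly the same amount, so these equal values are no separate support. Ndufaf1, part of the mitochondrial complex I assembly complex that builds the proximal membrane arm, had 7.88, 8.33, 7.98, 8.26 and 8.52 CPM in sham 1 to 5, against 7.73, 10.6, 13.3, 13.7 and 12.1 CPM in naive 1 to 5. The sham libraries were tight, and naive 1 lay below all of them. Its log2 fold change was -0.49 ± 0.14 (SE) (adjusted p = 0.0124). Ndufaf4, which works with Ndufaf3 on the Q module (chromosome 4, 24898083 to 24905001, plus strand), had 21.1, 22.98, 23.1, 24.7 and 22.4 CPM in sham 1 to 5, against 31.6, 30.8, 27.97, 29.9 and 25.1 CPM in naive 1 to 5. The groups did not overlap, and the log2 fold change was -0.34 ± 0.09 (SE) (adjusted p = 0.00772).

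Ndufaf6, needed at an early step of the membrane arm, had 9.96, 8.19, 8.12, 8.57 and 8.07 CPM in sham 1 to 5, against 11.1, 11.1, 8.77, 10.97 and 11.4 CPM in naive 1 to 5. Sham 1 lay above naive 3, and the log2 fold change was -0.32 ± 0.12 (SE) (adjusted p = 0.0448). That call was lost when any library other than sham 1 or naive 3 was left out, at adjusted p 0.062 to 0.124. Ndufaf7, a mitochondrial protein methyltransferase, had 7.02, 7.498, 6.51, 8.57 and 8.804 CPM in sham 1 to 5, against 6.19, 7.94, 9.56, 14.3 and 14.96 CPM in naive 1 to 5. Naive 4 and naive 5 stood far above the rest and naive 1 was the lowest of all, and the log2 fold change of -0.47 ± 0.21 (SE) did not pass (adjusted p = 0.0966). It was called lower without naive 1, at -0.60 (adjusted p = 0.018). Ndufaf5, which hydroxylates Ndufs7, had 6.58, 6.67, 5.77, 9.11 and 7.296 CPM in sham 1 to 5, against 7.73, 7.32, 8.69, 11.7 and 9.79 CPM in naive 1 to 5. The ranges overlapped, with the log2 fold change at -0.34 ± 0.16 (SE) (adjusted p = 0.107).

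Ndufaf3, the partner of Ndufaf4, had 23.6, 27.6, 22.9, 31.8 and 22.6 CPM in sham 1 to 5, against 31.1, 27.5, 25.6, 34.6 and 31.1 CPM in naive 1 to 5. Its groups overlapped and its log2 fold change was -0.22 ± 0.12 (SE) (adjusted p = 0.167). Ndufaf2, a paralog of Ndufa12 that holds its place in the unfinished complex, had 8.23, 10.3, 7.98, 12.9 and 8.27 CPM in sham 1 to 5, against 8.57, 9.23, 10.03, 11.1 and 8.52 CPM in naive 1 to 5. Sham 4 was the highest of the 10 libraries, and the log2 fold change was 0.01 ± 0.15 (SE) (adjusted p = 0.967). Ndufaf8, which stabilises Ndufaf5, had 35.9, 36.4, 31.9, 44.1 and 29.96 CPM in sham 1 to 5, against 39.98, 41.7, 32.3, 31.4 and 29.2 CPM in naive 1 to 5. Its libraries were intermixed, with the log2 fold change at 0.03 ± 0.12 (SE) (adjusted p = 0.865).

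Subunits and assembly factors were set side by side within each library. The mean log2 CPM of the 36 subunits was 7.06 ± 0.22 in sham and 7.37 ± 0.08 in naive libraries, and that of the 8 assembly factors 3.70 ± 0.14 in sham and 3.95 ± 0.13 in naive libraries (SD, n = 5 each). The subunit mean exceeded the assembly factor mean by 3.34, 3.30, 3.31, 3.52 and 3.36 log2 units in sham 1 to 5, against 3.49, 3.44, 3.48, 3.37 and 3.35 in naive 1 to 5. The ranges overlapped, and the group means of 3.37 ± 0.09 in sham and 3.42 ± 0.06 in naive libraries differed by less than their spread. Sham 4 weighed on this: without it the sham mean was 3.33 ± 0.03 (SD, n = 4). The difference of sham minus naive was then -0.095, larger than either SD, against -0.057 with all libraries. Leaving out the most extreme library shrinks the sham SD by itself. The ranges still overlapped without sham 4, with sham 5 at 3.36 above naive 5 at 3.35. Within groups, subunits varied together from library to library. The median Pearson correlation of deviations from the group mean was 0.63 over the 630 pairs of subunits and 0.32 over the 28 pairs of assembly factors. These values describe 10 libraries that share depth and scaling. Sham 4, with the highest sham value for 35 of the 36 subunits, enters the correlations, which were not computed without it.

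Naive libraries also differed among themselves gene by gene. The log2 ratio of naive 4 over naive 1 ran from -0.60 for Ndufc2 to 1.84 for Ndufb2 over the 36 subunits, with an SD of 0.53, against an SD of 0.13 for the log2 fold changes between the groups. Subunits with low levels were the ones higher in naive 4: Spearman's rho of that ratio with the mean level was -0.71 over the 36 genes of these libraries, a description with no test. Naive 1 gave the lowest naive value for 16 subunits and the highest for 11.

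**Figure D5:**
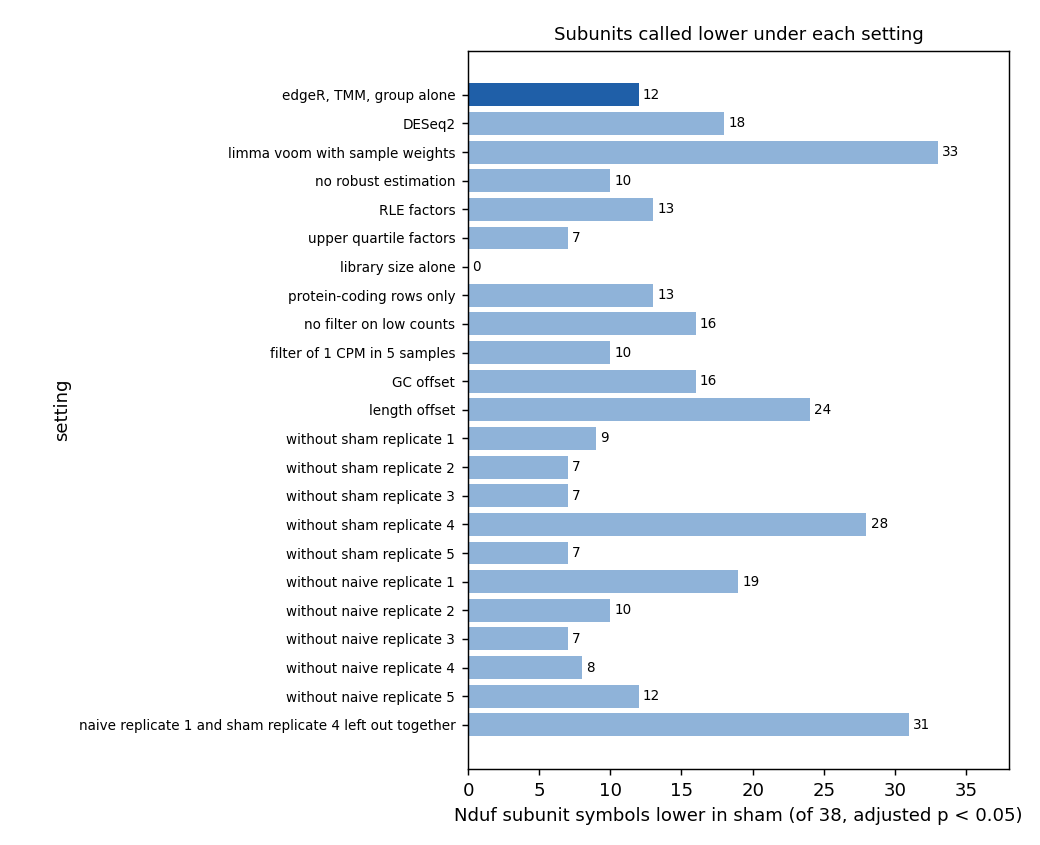
Number of the 38 Nduf subunit symbols called lower in sham (adjusted p under 0.05) with all libraries (dark bar, 12) and under other tests, scalings, filters and corrections or with libraries left out. The count runs from 0 with library size alone to 33 with limma voom and sample weights, is 28 without sham 4, and is 7 without sham 2, 3 or 5 or naive 3.

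The count of lower subunits depended on which libraries entered. It was 7 without sham 2, sham 3, sham 5 or naive 3, 19 without naive 1 and 31 without naive 1 and sham 4 together. With all 10 libraries it was 12, where 15.5% of all genes were lower. The shares of all genes in those fits with libraries left out are not given here. With upper quartile factors it was 7, where 14.1% of all genes were lower, and with library size alone 0, where no subunit was lower at an unadjusted p under 0.05 either and where 2.08% of all genes were called lower and 32.8% higher. With a correction for transcript length it was 24, where 16.5% of all genes were lower, and with limma voom and sample weights, a change of both test and weighting, it was 33, where 23.8% of all genes were lower.

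Of 11 other complex I assembly factors tested, 8 were lower in sham and 0 were higher, against 15.5% and 17.2% of all genes. Their median log2 fold change was -0.35. In the complex that holds Ndufaf1, Ecsit was lower at -0.35 (adjusted p = 0.0103) and Acad9, which resembles acyl-CoA dehydrogenases, at -0.26 (adjusted p = 0.0380). Its partner Tmem186 averaged 21.6 ± 1.57 CPM in sham and 29.2 ± 2.999 CPM in naive ventricles (SD, n = 5 each), the log2 fold change being -0.44 ± 0.09 (SE) with adjusted p = 0.00213. Tmem70, which also serves ATP synthase, averaged 35.9 ± 3.07 CPM in sham and 49.7 ± 8.97 CPM in naive ventricles, the log2 fold change being -0.47 ± 0.12 (SE) with adjusted p = 0.00527. Nubpl, which delivers iron-sulfur clusters, was lower at -0.52 (adjusted p = 0.0395), Foxred1 at -0.37 (adjusted p = 0.0405) and Aifm1, which aids import of subunits, at -0.41 (adjusted p = 0.00528). Dmac2, listed as Atp5sl in the table and needed for the distal membrane arm, was lower at -0.27 (adjusted p = 0.0171). In Tmem186, Tmem70, Aifm1, Acad9 and Dmac2 all sham libraries lay below all naive ones, an order found in 9.18% of all tested genes. Timmdc1, Tmem126b and Dmac1 did not pass, at -0.24, -0.24 and -0.08. The count of 8 fell to 4 without sham 2 or sham 3 and to 5 without sham 4 (Acad9, Foxred1 and Nubpl lost), sham 5 or naive 4, and it was 0 with library size alone. Of all genes 13.1% were lower without sham 4 and 2.08% with library size alone. The shares of all genes in the other fits are not given here. None of the 11 was called higher by edgeR (0 also at an unadjusted p under 0.05), DESeq2 or limma voom.

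The mitochondrial DNA encodes the remaining core subunits, which form the proton pumps. Of 5 mt-Nd transcripts tested, mt-Nd5 was lower in sham and 4 did not pass, a share near the 15.5% of all genes called lower. mt-Nd5 had 2630.2, 2449, 2477, 2370.3 and 2028 CPM in sham 1 to 5, against 2621, 2965, 2706, 2964 and 3369.8 CPM in naive 1 to 5, with sham 1 inside the naive range, the other sham libraries below it and the log2 fold change at -0.29 ± 0.10 (SE) (adjusted p = 0.0283). Fitted values for mt-Nd1, mt-Nd2, mt-Nd4 and mt-Nd6 were -0.40, -0.20, -0.24 and -0.20. The count of 1 became 3 without sham 4, with mt-Nd2 and mt-Nd6 added, and 2 without naive 1, and no mt-Nd transcript passed without sham 2, sham 5, naive 2 or naive 5. Shares of all genes in the fits with a library left out are not set beside these counts. mt-Nd4l is listed at 0 in all 10 libraries and mt-Nd3 at a mean of 0.344 CPM in sham and 0.375 CPM in naive libraries, and why these transcripts went uncounted was not tested. mt-Nd6 lies on the opposite strand to the others, and its counts cannot be told from reads of the transcripts across from it.

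Regulators of mitochondrial genes were also lower in part. Of 16 listed, 7 were lower in sham, 1 was higher and 8 did not pass, with a median log2 fold change of -0.29. Of all genes 15.5% were lower and 17.2% higher. With library size alone 0 regulators were lower (1 at an unadjusted p under 0.05) and 2 were higher, against 2.08% and 32.8% of all genes. Perm1, a muscle regulator that acts with the estrogen-related receptors, averaged 438 ± 48.1 CPM in sham and 635 ± 28.7 CPM in naive ventricles, with no overlap of the groups and the log2 fold change at -0.54 ± 0.09 (SE) (adjusted p = 2.42e-04). The coactivator Ppargc1a averaged 39.02 ± 2.55 CPM in sham and 54.5 ± 12.99 CPM in naive ventricles, the log2 fold change being -0.49 ± 0.13 (SE) with adjusted p = 0.0107. Of the nuclear receptors, Ppara was lower at -0.56, Esrrg at -0.47 and Esrrb at -0.39, while Esrra, at -0.29, did not pass (adjusted p = 0.0511). The mitochondrial transcription genes Tfb2m, at -0.41, and Polrmt, at -0.28, were lower, and Tfam, at -0.23, did not pass. Pprc1, a coactivator related to Ppargc1a, was higher at 0.25 (adjusted p = 0.0369), a call lost with a GC offset or without sham 2, 3 or 5 or naive 2, 3 or 5 (adjusted p 0.052 to 0.097). Without sham 4, 6 regulators were lower, Tfb2m having lost its call (-0.34, adjusted p = 0.077). Nuclear respiratory factor Nrf1, at 0.06, the GABP subunits Gabpa, at -0.21, and Gabpb1, at -0.08, and Yy1, at -0.17, did not pass.

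The other respiratory complexes gave similar values. Of 43 nuclear genes listed for complexes II to V, 16 were lower in sham and 0 were higher, against 15.5% and 17.2% of all genes. Their median log2 fold change was -0.30, against -0.31 for the 36 complex I subunits. edgeR gave 0 higher at an unadjusted p under 0.05 as well, and DESeq2 and limma voom called 0 higher. The count of lower genes was 31 without sham 4, where 13.1% of all genes were lower. Sham 4 was set aside in part for its high values in complex I subunits, which gave similar values, so that share is no fair measure. The count was 9 without sham 2 or sham 3 and 10 without sham 5, fits whose shares of all genes are not given here. With library size alone it was 0, with 2 lower at an unadjusted p under 0.05. With library size alone, and without naive 1 and sham 4 together, 1 of these genes was higher. The 43 include Atp5sl, the assembly factor counted above as Dmac2; without it 15 of 42 were lower, and 30 without sham 4. The difference between complex I and the other complexes was not tested.

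The promoters were searched because the genes shifted together. RefSeq (GRCm38.p6) gave a promoter of 300 bases, 250 before and 50 after the annotated start, for 40 of the 46 genes. The nuclear respiratory factor 1 motif (GCGCA, any 1 base, then GCGC), on either strand, was found in 7 of the 32 complex I subunits with a promoter (21.9%) and in 2 of 7 assembly factors, against 5.19% of the 27025 genes with a promoter. It was found in 1 of 10 subunits called lower and in 6 of 22 that did not pass. The YY1 motif ATGGCGG was found in 8 of 32 subunits, in 0 of 10 called lower and 8 of 22 not passed, against 4.69% of all genes. These splits rest on sham 4: with calls made without it, the nuclear respiratory factor 1 motif was found in 5 of 23 subunits called lower and 2 of 9 that did not pass, and the YY1 motif in 6 of 23 and 2 of 9. The ETS motif CCGGAAG was in 4 of 32 (12.5%, against 9.93%) and the estrogen-related receptor motif TNAAGGTCA in 1 of 32 (3.13%, against 1.43%), that of Ndufb4. The motif letters were settled after a first look at matches, and a match describes letters, not binding.

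Upstream sequences of 4 genes, picked after their values were seen, show that motif in 3 genes and its absence in 1. They are the 250 bases before the RefSeq start, 5′ to 3′ on the gene's strand, with matches to the nuclear respiratory factor 1 motif in capitals. Ndufb8 (chr19:44555443-44555692 on the minus strand) was called lower and holds no match, while Ndufaf4 (chr4:24897833-24898082 on the plus strand) was called lower with 1 match. Ndufa8 (chr2:36049339-36049588 on the minus strand) and Ndufs6 (chr13:73328483-73328732 on the minus strand), at log2 fold changes of -0.23 and -0.29, did not pass and hold 1 match each. Both were called lower without sham 4, Ndufa8 at -0.31 (adjusted p = 0.0027) and Ndufs6 at -0.38 (adjusted p = 0.0021).
Ndufb8: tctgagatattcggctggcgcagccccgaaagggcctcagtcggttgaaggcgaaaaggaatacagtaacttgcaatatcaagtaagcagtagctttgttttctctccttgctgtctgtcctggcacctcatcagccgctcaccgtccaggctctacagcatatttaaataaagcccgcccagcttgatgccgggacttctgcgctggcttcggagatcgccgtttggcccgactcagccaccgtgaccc
Ndufaf4: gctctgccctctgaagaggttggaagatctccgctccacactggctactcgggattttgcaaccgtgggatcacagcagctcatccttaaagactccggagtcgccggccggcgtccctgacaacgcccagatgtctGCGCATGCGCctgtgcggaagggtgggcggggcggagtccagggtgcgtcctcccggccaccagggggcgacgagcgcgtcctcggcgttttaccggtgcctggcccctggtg
Ndufa8: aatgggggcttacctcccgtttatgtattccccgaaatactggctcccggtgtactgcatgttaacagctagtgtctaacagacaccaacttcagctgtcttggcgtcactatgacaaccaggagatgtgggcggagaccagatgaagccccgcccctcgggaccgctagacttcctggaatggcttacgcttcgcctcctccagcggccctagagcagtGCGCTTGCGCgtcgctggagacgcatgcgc
Ndufs6: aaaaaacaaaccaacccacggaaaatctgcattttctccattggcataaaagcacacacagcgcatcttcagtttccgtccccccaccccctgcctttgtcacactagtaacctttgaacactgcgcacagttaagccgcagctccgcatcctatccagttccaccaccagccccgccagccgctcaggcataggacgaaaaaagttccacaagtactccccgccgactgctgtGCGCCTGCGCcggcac
The match in Ndufaf4 ends 104 bases before the RefSeq start, that in Ndufa8 21 bases and that in Ndufs6 7 bases before it. GENCODE starts Ndufa8 at 36049406 and Ndufs6 at 73328542, both on the minus strand. By that annotation the matches in these 2 genes lie inside the gene and not upstream of it.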

How the data were processed

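Per the labels' protocols, single-end libraries without strand information were built from oligo(dT)-selected RNA. What the authors deposited are raw HTSeq counts per Ensembl gene on GRCm38, neither pooled nor normalised, per the file headers, beside a GC content in percent for each gene, per the file headers, used only for a GC correction. The submitters' processing notes name Bowtie2, TopHat2 2.1.1, HTSeq, DESeq and edgeR without roles. Annotation release and counting mode were not given in the sources used here. Because strand was not kept, overlapping genes cannot be separated by strand.

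Of 41264 rows, 574 repeated a gene and were collapsed; Ndufab1-ps, which is not protein-coding, was left out. Library totals, 9683181 to 21537135 counts, limit precision. The edgeR 4.0.16 filter filterByExpr, at a minimum count of 10 and a total of 15, kept 13622 genes, which were scaled with TMM factors and tested with the robust quasi-likelihood F test on group alone, Benjamini-Hochberg adjusted p under 0.05. SEs were taken as the fold change on the log2 scale divided by the root of F. CPM are TMM-scaled and scores use log2 CPM with a prior count of 2. Coordinates and lengths come from GENCODE M21 (GRCm38), promoters from RefSeq (GRCm38.p6). The test was tried on simulated counts.

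Alternatives were DESeq2 1.42.0, limma 3.58.1 voom with sample weights, no robust estimation, RLE, upper quartile and no composition factors, protein-coding rows only, no filter, 1 CPM in 5 samples, GC and length offsets, the replicate number as a block, and libraries left out, all in R 4.3.3. The genes and lists were chosen with earlier results of these data known. Values per library were set for the 5 lower subunits of smallest p, up to 3 higher ones, the 3 of largest p, the core subunits, Ndufa4, Ndufa4l2, Ndufab1 and the assembly factors. Coa1, also listed, is not analysed here. The values of 1 gene are not reported here, though counts and medians over groups include it.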

Additional observations from a re-analysis of the deposited data

Results flagged for a closer look

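Among 100 groups of 5 libraries checked (each gene or score in each group), 13 had a library set off from the other 4 by a gap above Dixon's 95% critical value of 0.71, where chance alone gives about 1 in 20. In 11 of the 13 the library was sham 4, always as the highest sham value. The subunits were Ndufa11 at 389 CPM, Ndufa2 at 240.4 CPM, Ndufa3 at 249 CPM, Ndufa5 at 172 CPM, Ndufa8 at 371 CPM, Ndufb7 at 493 CPM, Ndufb9 at 537 CPM and Ndufs8 at 309.7 CPM. The mean log2 CPM of the 36 complex I subunits in sham 4 was 7.44, the subunit mean less the assembly factor mean was 3.52, and the mean log2 CPM of the mt-Nd transcripts was 11.2. Over the 36 subunits, sham 4 lay above the mean of the other sham libraries by a median log2 ratio of 0.50 (0.07 to 0.82), and over the 8 assembly factors by 0.30. These values share 1 library and are not separate observations. The other 2 concern Ndufaf6, with sham 1 the highest sham library at 9.96 CPM and naive 3 the lowest naive library at 8.77 CPM.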

How the results depend on the processing

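Counts of lower calls moved with the setting, while the medians moved outside the spread between libraries with library size alone and under no other setting run. With library size alone the median log2 fold change was -0.0349 for subunit symbols and -0.0668 for assembly factors, Ndufv1 turned to 0.0304, and lower calls numbered 0 for subunits, Ndufaf genes, other assembly factors and mt-Nd transcripts (0 in each also at an unadjusted p under 0.05), while all genes gave 283 lower and 4473 higher calls against 2113 and 2342. Of 38 subunit symbols, 33 were lower with limma voom, 7 with upper quartile factors, 24 with a length offset and 31 without naive 1 and sham 4 together, against 12. Leaving out 1 library gave 7 to 28 lower subunits, 2 to 3 Ndufaf genes, 4 to 7 other assembly factors and 0 to 3 mt-Nd transcripts. The shares of all genes in those fits, other than 13.1% without sham 4, are not given here. Without a filter 5 other assembly factors were lower. For mt-Nd transcripts limma voom gave 3 and the removal of naive 1 and sham 4 gave 5, against 1. For the individual genes there were 1150 values over the alternative settings. Of these, 164 passed the threshold where the TMM fit of all 10 libraries on group alone had not. In 72 a call of that fit was lost, and 1 call, that of Ndufv1, changed sign. Of all 1150, passing or not, 32 had the other sign, 14 of them with library size alone and the other 18 in Ndufaf2, Ndufaf8 or Ndufb4.

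Replicate numbers occur in both groups, and the labels do not say what they mark. Over all tested genes, the deviations of same-numbered libraries correlated at 0.23, 0.04, 0.01, 0.29 and 0.29. Of the 5 numbers, 3 matched best with their own. Over the complex I subunits and Ndufaf genes alone the correlations were 0.53, 0.49, -0.34, 0.42 and 0.81. The numbers were not taken as pairs, and whether they mark pairs was not tested. With the replicate block 28 subunits, 5 Ndufaf genes and 2 mt-Nd transcripts were lower, against 20.6% of all genes. With the block and a GC offset the counts were 30, 5 and 3, and with the block and a length offset 31, 6 and 3. The shares of all genes in the fits with the block and an offset are not given here.

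Fold changes near 20% are close to the spread between 5 libraries, low-count genes such as Ndufb4 (11 to 52 counts) are limited by depth, and genes sharing sequence are limited by counting.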
